A study of Mus musculus with 32 samples.

Results

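Collagen chains are the protein subunits of the main structural proteins of connective tissue. All genes whose symbol has the form Col, a number, a and a number were taken, which gave 44 of the 43035 genes in each table. They comprised 11 fibrillar chains, 9 basement membrane chains, 9 FACIT chains (fibril-associated collagens with interrupted triple helices), 10 network chains, 4 transmembrane chains and Col26a1, which was kept apart. After low counts were removed, 39 of the 44 were tested in whole muscle and 40 in sorted cells, and every chain was tested in at least 1 of these 2 fits. Col2a1, Col4a6, Col9a2, Col9a3 and Col17a1 were not tested in whole muscle, and Col6a4, Col9a1, Col10a1 and Col25a1 were not tested in sorted cells.

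The study measured RNA in mice that carry an inducible DUX4 gene and in WT mice without it. DUX4 is the transcription factor whose misexpression in muscle causes facioscapulohumeral muscular dystrophy. All 32 libraries came from mice fed chow with doxycycline, WT mice included. Whole muscle was taken at a time labelled 2 weeks (5 WT and 5 DUX4 libraries) and at 16 weeks (4 and 4), and endothelial cells carrying CD31 (3 WT and 4 DUX4) and PDGFRa+ cells (3 and 4), fibroadipogenic progenitors or FAPs, which make much of the connective tissue of muscle, were sorted from hind limb muscle, 75000 cells each. The sources used here do not give the age of the mice, the promoter of the transgene, the muscles taken or the time of the sorted cells, and nothing says that each library came from a separate animal, so that p-values measure the spread between these libraries only.

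A collagen molecule is a triple helix of chains of the same or of different kinds. Types I, III and V, which FAPs and tendon cells make in muscle, form the banded fibrils that carry tension, and types XI, XXIV and XXVII are minor fibrillar forms. Type IV chains build the sheet under every endothelial tube and around every muscle fibre, type VI forms beaded filaments next to that sheet, and FACIT chains sit on the surface of fibrils. Chains are hydroxylated and folded in the endoplasmic reticulum, trimmed outside the cell and then crosslinked.

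The promoters below belong to chains on which the results turn: Col3a1 and Col5a1 were among the fibrillar chains that rose in endothelial libraries, and Col11a1 and Col10a1 were the fibrillar and network chains of largest called change in 16-week muscle. Each is the 250 bases before the start of transcription, read 5′ to 3′ on the strand of the gene from RefSeq sequence of build GRCm38.p6, at chr1:45311288-45311537, chr2:27886175-27886424, chr3:114030290-114030539 and chr10:34389731-34389980, all on the plus strand. Capitals mark 3 short motifs on either strand. The first is spelled TATAAA, the usual core of a TATA box. Another, spelled CCAAT, is bound by the factor NF-Y. The last, spelled GGGCGG, is the GC box that Sp factors bind.
Col3a1 promoter: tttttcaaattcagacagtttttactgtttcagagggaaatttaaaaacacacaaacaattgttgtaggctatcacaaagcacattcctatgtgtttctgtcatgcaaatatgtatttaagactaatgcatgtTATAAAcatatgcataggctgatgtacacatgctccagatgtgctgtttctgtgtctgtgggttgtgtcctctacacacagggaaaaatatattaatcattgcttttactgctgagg
Col5a1 promoter: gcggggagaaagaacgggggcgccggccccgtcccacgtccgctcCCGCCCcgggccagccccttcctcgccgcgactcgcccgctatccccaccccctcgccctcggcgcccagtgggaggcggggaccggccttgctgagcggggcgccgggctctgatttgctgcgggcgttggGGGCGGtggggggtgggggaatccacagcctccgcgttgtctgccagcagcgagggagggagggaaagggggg
Col11a1 promoter: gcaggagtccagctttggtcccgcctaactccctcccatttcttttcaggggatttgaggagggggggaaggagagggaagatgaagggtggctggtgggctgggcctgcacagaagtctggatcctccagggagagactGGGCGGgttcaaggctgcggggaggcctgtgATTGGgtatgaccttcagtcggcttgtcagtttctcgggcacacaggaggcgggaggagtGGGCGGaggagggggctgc
Col10a1 promoter: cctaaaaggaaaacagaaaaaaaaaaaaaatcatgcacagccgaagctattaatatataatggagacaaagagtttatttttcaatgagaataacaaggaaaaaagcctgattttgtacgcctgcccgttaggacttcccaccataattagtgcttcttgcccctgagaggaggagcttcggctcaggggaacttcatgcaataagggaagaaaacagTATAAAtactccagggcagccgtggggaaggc
TATAAA stood in the windows of Col3a1 and Col10a1, and GGGCGG in those of Col5a1 and Col11a1. Of the 44 chains 35 had at least 1 window, with 38 windows in all. TATAAA was in 13.2% of these 38 windows against 12.4% of all 32851 windows of that length, CCAAT in 34.2% against 33.8%, and GGGCGG in 57.9% against 32.7%. A match describes the letters only.

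Total counts ran from 6.07 to 20.7 M per library, and 3 counts, the limit that a count of 0 allows, were worth 0.145 to 0.494 CPM (counts per 1 M counts of the library) before scaling. The CPM given below were also divided by scaling factors of 0.832 to 1.29, so that these limits are only approximate on their scale. These limits cover counting error only. In 16-week muscle the factors were 1.08 to 1.23 in DUX4 and 0.856 to 0.951 in WT. In 2-week muscle they were 0.922 to 1.29 in DUX4 and 0.832 to 0.94 in WT. Dividing by them lowers the CPM of DUX4 muscle relative to WT muscle, and leaves shares of all CPM as they were. CPM were scaled within whole muscle and within sorted cells separately, and the kits differed, so that levels of the 2 kinds of library are set side by side without a test. Values after ± are SDs over the libraries of a group. In whole muscle the 2-week libraries formed 2 sets, replicates 1 to 3 and replicates 4 and 5, and replicate 1 of the 16-week WT libraries held the least RNA of many chains. Summed over 8 endothelial markers the CD31+ libraries held 3756 to 4412 CPM (WT) and 2865 to 3368 CPM (DUX4), against 222 to 259 and 91.7 to 156 CPM in FAPs. The 8 FAP markers summed to 31046 to 37487 and 36301 to 39534 CPM in FAPs and to 3161 to 4814 and 7009 to 8979.7 CPM in the CD31+ libraries, and no FAP marker was at 0 in any CD31+ group.

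Collagen RNA was most abundant in FAPs. The 44 chains together took 3.03 ± 0.515% of all CPM in WT FAPs and 4.2 ± 0.118% in DUX4 FAPs, 0.594 ± 0.145% and 1.43 ± 0.0834% in endothelial libraries, 0.229 ± 0.079% and 0.276 ± 0.0519% in 2-week muscle, and 0.0549 ± 0.0182% and 0.163 ± 0.0746% in 16-week muscle. The WT and DUX4 ranges did not overlap in 16-week muscle, in endothelial libraries or in FAPs, and overlapped in 2-week muscle. Levels of different genes were compared as CPM per kilobase of the longest protein-coding transcript. Col3a1, the chain of type III fibrils, led by group mean in 6 of the 8 groups, from 37.2 ± 18.8 CPM per kb in 16-week DUX4 muscle to 2837 ± 168 in DUX4 FAPs. In 16-week DUX4 muscle Col3a1 and Col1a2 did not differ beyond their SDs. In 2-week WT muscle Col3a1 over Col1a1, per kb, was 2.67, 2.3 and 2.3 in replicates 1 to 3 and 0.814 and 1.06 in replicates 4 and 5. In 2-week DUX4 muscle the same ratio was 2, 2.2 and 2 and then 1.05 and 1.04.

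Col4a1, a chain of the ubiquitous basement membrane collagen, led in the other two, with 199 ± 13.6 CPM per kb in WT endothelial libraries and 13.5 ± 4.5 in 16-week WT muscle. In WT endothelial libraries the next were Col3a1 at 136 ± 84.9, Col1a2 at 128 ± 55.7 and Col4a2 at 122 ± 8.05 CPM per kb. These 3 neighbours did not differ beyond their SDs. In WT FAPs Col3a1 at 1666 ± 462 stood above Col1a2 at 847 ± 112, and Col1a2 and Col6a1 at 826 ± 152 CPM per kb did not differ beyond their SDs. In 2-week WT muscle Col3a1 held 116 ± 74.8 CPM per kb, followed by Col1a2, Col1a1 and Col4a1 between 53.6 and 61.2, within each other's SDs. In 16-week WT muscle the first 4 chains, Col4a1, Col3a1, Col4a2 and Col1a2, lay between 10.1 and 13.5 CPM per kb and were likewise not separable. The order depended on the length used: with the length of all exons merged, Col1a2 stood lower, at rank 4 to 6 in all 8 groups, and Col1a1 rather than Col3a1 led in DUX4 muscle at both times.

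**Figure D1:**
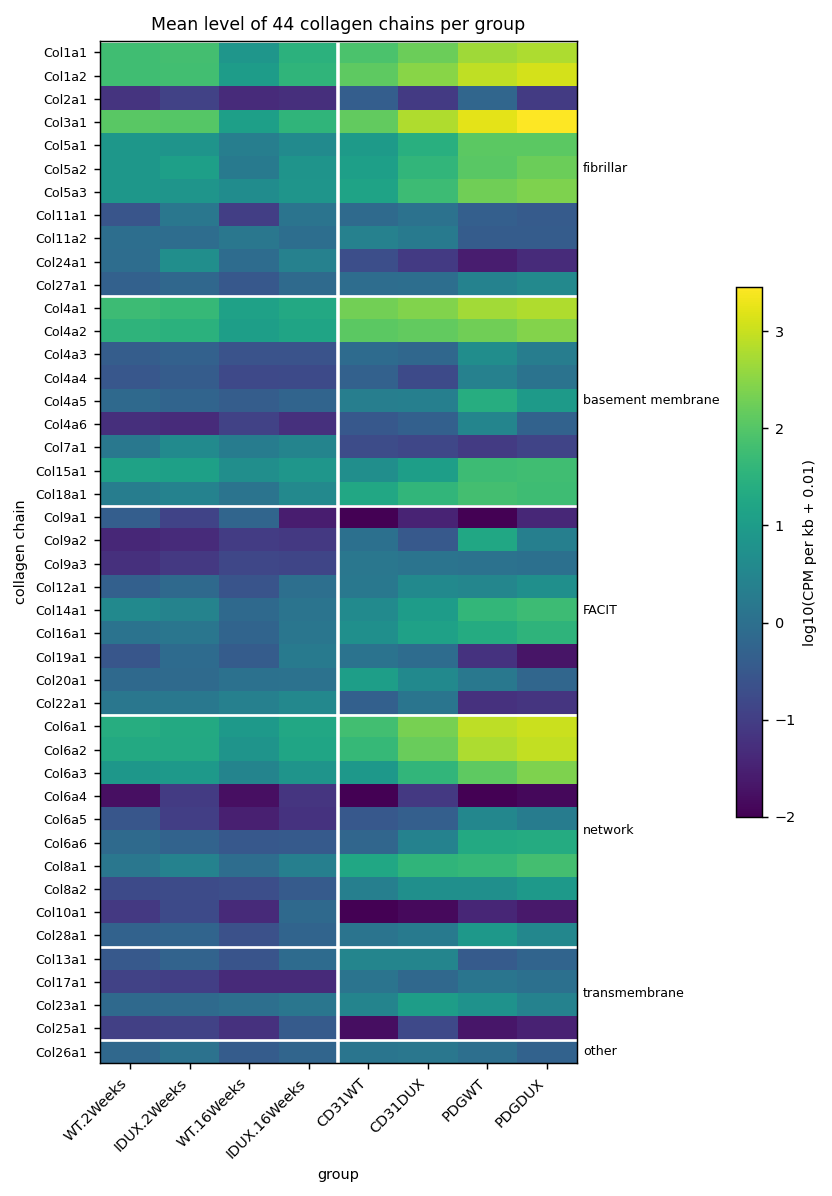
Mean level of the 44 collagen chains (rows, grouped by class) in the 8 groups (columns), as log10 of CPM per kb plus 0.01. Col3a1, Col1a2, Col6a1 and Col6a2 are the brightest rows in FAPs, and Col10a1, Col9a1 and Col6a4 are dark in sorted cells.

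The classes took different parts of this RNA. Fibrillar chains made up 40.9 ± 9.84% of collagen CPM per kb in WT endothelial libraries and 56 ± 1.21% in DUX4, while basement membrane chains made up 40 ± 8.81% and 20.6 ± 1.16%. In 16-week muscle the fibrillar part was 39.2 ± 1.46% in WT and 53.7 ± 2.8% in DUX4, and the basement membrane part 33.9 ± 2.7% and 21.1 ± 1.67%. The WT and DUX4 ranges of both parts did not overlap in either case. The summed basement membrane level itself was not lower in DUX4: it was 34 ± 10.6 and 49.3 ± 17.8 CPM per kb in 16-week muscle and 349 ± 26.5 and 455 ± 52.6 in endothelial libraries. In 2-week muscle the fibrillar part was 58 ± 10.4% and 63.1 ± 7.03%, and in FAPs 57 ± 4.54% and 60.8 ± 2.55%, each pair with overlapping ranges.

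**Figure D2:**
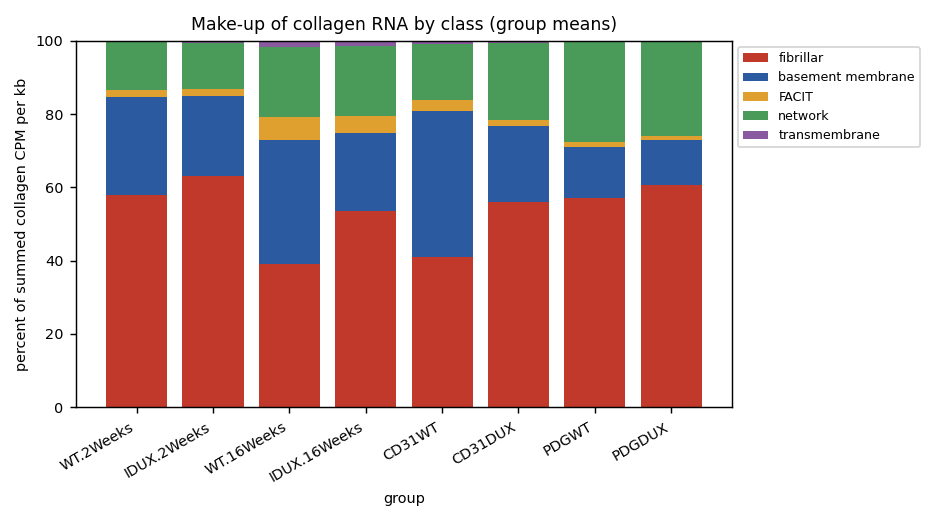
Percent of summed collagen CPM per kb taken by 5 classes, as group means stacked to about 100. The fibrillar bar is larger and the basement membrane bar smaller in DUX4 than in WT at 16 weeks and in endothelial libraries.

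WT muscle held far less collagen RNA at 16 weeks than at 2 weeks. No chain rose and 12 of 39 fell, where 7.9% of all genes tested rose and 5.68% fell, and the median change of the 39 was -0.90 on the log2 scale against 0.02 over all genes. Adjusted p-values here and below are from edgeR's quasi-likelihood test with Benjamini-Hochberg adjustment over all genes tested, and a gene was said to rise or fall at an adjusted p under 0.05. Of the 12, 5 were fibrillar chains. Col1a1, the major chain of type I collagen, held 504, 334, 341, 322 and 277 CPM in the 2-week WT libraries and 16.7, 53.4, 51.6 and 49.2 CPM in the 16-week ones, a log2 change of -3.06 (SE 0.40, adjusted p = 6.0e-04). Col3a1 held 1264, 721, 735, 246 and 275 and 20.4, 72.9, 82.6 and 94.6 CPM, a change of -3.26 (SE 0.55, adjusted p = 0.0026). The lowest 2-week library stood above the highest 16-week library for both chains.

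The others that fell were Col1a2 (log2 change -2.60), Col5a1 (-1.87), Col5a2 (-2.17), the type IV chains Col4a1 (-1.99) and Col4a2 (-1.64), the type VI chains Col6a1 (-1.46), Col6a2 (-1.66) and Col6a3 (-1.47), and Col15a1 (-1.5) and Col16a1 (-1.08). Time and set cannot be told apart here, because the 16-week libraries belong to neither 2-week set. Without replicates 1 and 4 of the 16-week WT libraries 5 chains were called. In DUX4 muscle the same step in time gave 1 call of 39, Col10a1 (log2 change 2.13 (SE 0.62, adjusted p = 0.046)), where 4.83% of all genes rose and 2.42% fell. That call was lost when any 1 library was left out. The median log2 change of the 39 in DUX4 muscle was -0.26 against -0.006 over all genes, and 15 of the 39 changes were positive. It was -0.77 for fibrillar and -0.88 for basement membrane chains. Calls in WT and not in DUX4 are no test of a difference, and the interaction term given below called no chain by edgeR.

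At 2 weeks DUX4 muscle differed from WT in 5 of the 39 chains, all higher: Col11a1, Col24a1, Col7a1, Col13a1 and Col6a4. That is 12.8% of the chains beside 11.2% of all genes tested, and no chain fell beside 6.47% of all genes, so that the share called was near that of all genes. The median change of the 39 was 0.09 on the log2 scale against -0.01 over all genes. The abundant chains of types I, III, IV and VI were not among them. Col1a1 held 504, 334, 341, 322 and 277 CPM in the WT libraries and 264, 368, 367, 625 and 345 CPM in the DUX4 libraries, with a log2 change of 0.15 (SE 0.34, adjusted p = 0.81). The groups overlapped widely, and the change was -0.25 in replicates 1 to 3 alone and 0.67 in replicates 4 and 5 alone, of opposite sign.

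Col11a1, a minor fibrillar chain known from cartilage, held 0.979, 0.975, 1.1, 2.77 and 4.05 CPM in the WT libraries and 7.38, 16.3, 4.75, 11.5 and 14.4 CPM in the DUX4 libraries. All 5 DUX4 libraries were above the highest WT library, with a log2 change of 2.44 (SE 0.48, adjusted p = 0.0021). Col24a1, another minor fibrillar chain, held 3.92, 10.4, 7.98, 5.13 and 4.52 CPM in the WT libraries and 13.3, 33, 46, 40.3 and 43.2 CPM in the DUX4 libraries, a change of 2.47 (SE 0.55, adjusted p = 0.0052). Its lowest DUX4 library, replicate 1, was still above the highest WT library. Col7a1, the chain of anchoring fibrils, held 16.5, 16.5, 7.52, 12.2 and 17.3 CPM in the WT libraries and 39.1, 53.3, 48.4, 20.1 and 29.3 CPM in the DUX4 libraries, a change of 1.44 (SE 0.29, adjusted p = 0.0024), and again the groups did not overlap.

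Col13a1, a transmembrane collagen of the neuromuscular junction, held 0.734, 0.758, 1.19, 1.28 and 1.22 CPM in the WT libraries and 1.5, 1.49, 1.9, 1.78 and 1.93 CPM in the DUX4 libraries. Its change was small at 0.72 (SE 0.23, adjusted p = 0.041), and the call was lost when any of 8 of the 10 libraries was left out (all but WT replicates 4 and 5). Col6a4 held 0, 0, 0.0917, 0.0675 and 0.0942 CPM in the WT libraries and 0.588, 0.893, 0.761, 0 and 0.621 CPM in the DUX4 libraries, a change of 3.28 (SE 0.92, adjusted p = 0.02). These values lie near the worth of a few counts, and DUX4 replicate 4 was at 0. The 2 sets gave different pictures: in replicates 1 to 3 alone Col7a1, Col8a1, Col11a1 and Col24a1 rose while Col4a1, Col4a2, Col5a1, Col6a1 and Col6a2 fell by 0.57 to 0.85 on the log2 scale, and in replicates 4 and 5 alone only Col24a1 was called. Without DUX4 replicate 2 or 3, 3 chains were called. With a term for the set, the 5 chains and Col19a1 were called.

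Some chains differed more between the sets than between the genotypes. Col22a1, a FACIT chain of tissue junctions such as that of muscle and tendon, held 5.63, 4.22, 3.3, 24 and 27.8 CPM in the WT libraries and 1.5, 1.67, 4.37, 35 and 22.9 CPM in the DUX4 libraries. Replicates 4 and 5 were high in both genotypes. Col14a1, a FACIT chain of fibril surfaces, held 44, 48.1, 27.3, 3.24 and 4.14 CPM in the WT libraries and 17.2, 21.5, 35.6, 6.88 and 6.0 CPM in the DUX4 libraries, with replicates 4 and 5 low in both. Neither was called between the genotypes. Beside these values, markers of other cells moved in 2-week DUX4 muscle. Of the muscle fibre markers 4 of 6 fell, with sums of 104495 to 124098 CPM in WT and 52239 to 105999 CPM in DUX4. Of the macrophage markers 2 of 7 rose (Cd68 3.67 and Csf1r 1.39 on the log2 scale), with sums of 28.2 to 93.6 and 59.7 to 149 CPM. Of the satellite cell markers 1 of 5 rose (Cdh15 1.45), with sums of 37.3 to 45.8 and 61 to 94.4 CPM that did not overlap. Of the 3 cartilage and bone markers that could be tested Sox9 1.36 rose, and the 7 of that list summed to 12 to 37.7 and 11.1 to 25.7 CPM. Of the tendon markers Thbs4 1.2 rose and Mkx -1.46 fell, and of the mural markers Abcc9 -0.67 fell, with sums of 35.6 to 103 and 73.2 to 153 CPM for tendon and 628 to 1130.1 and 349 to 909.5 CPM for mural cells. No FAP, endothelial, Schwann cell or adipocyte marker was called, and no marker of these lists was at 0 throughout a group. Their part in the result was not tested.

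**Figure D3:**
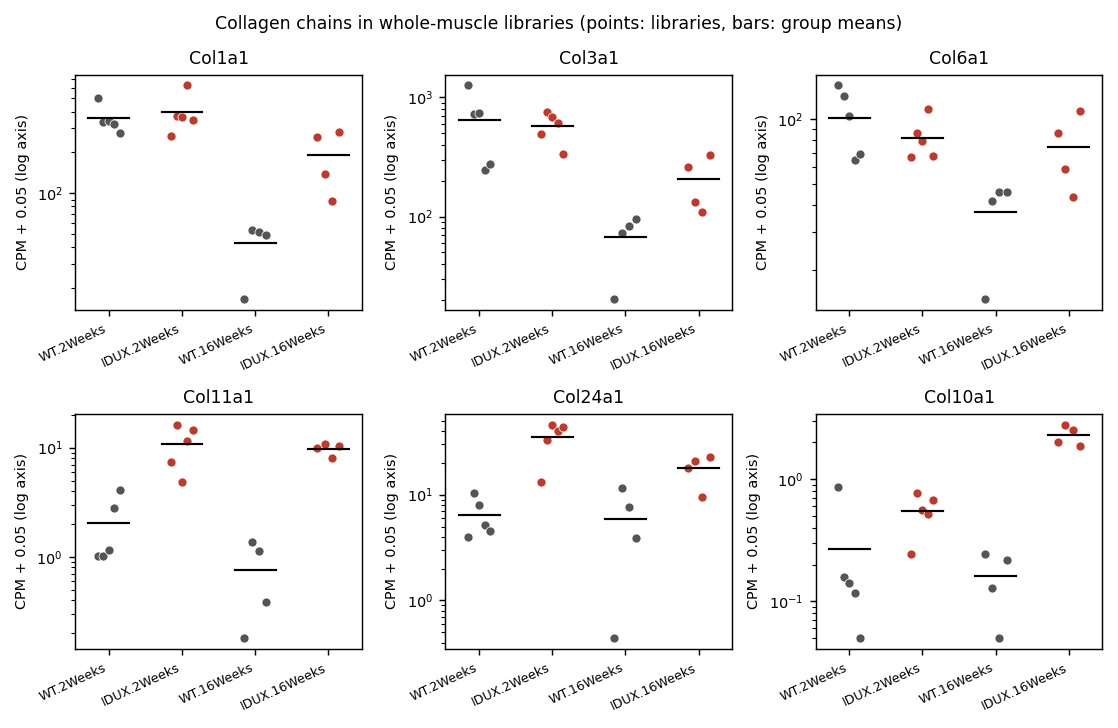
CPM plus 0.05 on a log axis for 6 collagen chains in each whole-muscle library (points; grey WT, red DUX4), with group means as bars. Col11a1 separates WT from DUX4 at both times, Col1a1 only at 16 weeks, and the WT libraries at 16 weeks sit below those at 2 weeks for Col1a1, Col3a1 and Col6a1.

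At 16 weeks DUX4 muscle held more RNA of 18 of the 39 chains than WT muscle of the same time and less of 1. That is 46.2% of the chains higher beside 14.1% of all genes tested, and 2.56% lower beside 12.5%. The median change of the 39 was 1.25 on the log2 scale, against 0.01 over all genes, and 36 of the 39 changes were positive. Of the fibrillar chains 6 of 10 rose, of the network chains 6 of 10, of the FACIT chains 3 of 7, of the transmembrane chains 2 of 3 and of the basement membrane chains 1 of 8. The WT and DUX4 libraries did not overlap for 14 of the 19 called chains, beside 81.4% of all called genes and 27.1% of all genes tested. In whole tissue, a change in the number of cells of a type and a change in RNA per cell cannot be told apart.

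Among the fibrillar chains Col1a1 held 16.7, 53.4, 51.6 and 49.2 CPM in the WT libraries and 260.2, 139, 87.2 and 285 CPM in the DUX4 libraries, a log2 change of 2.18 (SE 0.40, adjusted p = 9.3e-04). Its partner in type I collagen, Col1a2, held 18.3, 64.1, 65.5 and 68.5 CPM in the WT libraries and 251, 140.0, 102 and 291 CPM in the DUX4 libraries, a change of 1.86 (SE 0.42, adjusted p = 0.0042). Both were lowest in WT replicate 1 and highest in DUX4 replicate 4, and the groups did not overlap. Even so, the mean Col1a1 level of 16-week DUX4 muscle, 193 ± 95 CPM, stood below that of 2-week WT muscle, 355 ± 86.8 CPM. Col3a1 held 20.4, 72.9, 82.6 and 94.6 CPM in the WT libraries and 259, 132, 109 and 329 CPM in the DUX4 libraries, a change of 1.62 (SE 0.53, adjusted p = 0.033). DUX4 replicates 1 and 4 were high and replicates 2 and 3 close to WT.

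Col5a2, which is built into type I fibrils and helps set their width, held 5.72, 12.6, 14.9 and 12.8 CPM in the WT libraries and 50.7, 33.4, 29 and 58.5 CPM in the DUX4 libraries, a change of 1.90 (SE 0.33, adjusted p = 7.1e-04). Its type V partner Col5a1 was not called, with 7.22, 19.5, 21.7 and 24.4 CPM in the WT libraries and 40.1, 28.2, 18.5 and 47.2 CPM in the DUX4 libraries and a change of 0.89 (SE 0.40, adjusted p = 0.11). Of the 6 fibrillar chains that rose, Col11a1 had the largest log2 change and Col27a1 the smallest. Col11a1 held 0.13, 1.32, 1.07 and 0.336 CPM in the WT libraries and 9.83, 10.7, 8.06 and 10.3 CPM in the DUX4 libraries, a change of 3.68 (SE 0.59, adjusted p = 3.6e-04). Col27a1, a chain of cartilage and other dense tissue, held 2.6, 1.63, 3.05 and 1.85 CPM in the WT libraries and 5.17, 4.57, 5.77 and 7.14 CPM in the DUX4 libraries, a change of 1.30 (SE 0.36, adjusted p = 0.013). Col24a1, called at 2 weeks, missed the threshold here, with 0.39, 11.6, 7.52 and 3.86 CPM in the WT libraries and 17.7, 20.7, 9.52 and 22.8 CPM in the DUX4 libraries and a change of 1.58 (SE 0.60, adjusted p = 0.063). Its WT replicate 2 overlapped the DUX4 libraries.

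Of the network chains the 3 abundant type VI chains rose. Col6a1 held 14.6, 41.6, 45.9 and 45.9 CPM in the WT libraries and 86.2, 58.9, 43.7 and 109.7 CPM in the DUX4 libraries, a log2 change of 1.02 (SE 0.35, adjusted p = 0.043). Col6a2 held 12.9, 32.3, 41.9 and 36.3 CPM in the WT libraries and 89.7, 54.2, 43.3 and 111 CPM in the DUX4 libraries, a change of 1.28 (SE 0.38, adjusted p = 0.019). Col6a3, the longest of the 3 proteins, held 11.3, 27.5, 40 and 35.8 CPM in the WT libraries and 79.3, 52.4, 35.7 and 105 CPM in the DUX4 libraries, a change of 1.25 (SE 0.36, adjusted p = 0.017). In all 3 chains DUX4 replicate 3 was the lowest of its group, inside the WT range for Col6a1 and Col6a3. Col8a1, a chain of short networks known from vessel walls, held 1.3, 6.59, 5.54 and 4.7 CPM in the WT libraries and 16.4, 8.38, 6.35 and 13.9 CPM in the DUX4 libraries, a change of 1.33 (SE 0.42, adjusted p = 0.026).

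Col10a1, the chain of cartilage that is turning to bone, held 0.195, 0.0776, 0 and 0.168 CPM in the WT libraries and 1.98, 2.74, 2.47 and 1.81 CPM in the DUX4 libraries. This was the largest rise of any chain called at 16 weeks, 4.37 (SE 0.83, adjusted p = 0.0012) on the log2 scale, at a level of few counts, and 1 WT library was at 0. Of the 7 cartilage and bone markers only 3 could be tested, Comp among them rose (log2 change 2.17), and Acan, Ibsp and Bglap were at 0 in all 16-week WT libraries. The 7 summed to 18.1 to 27.9 CPM in WT and 21.6 to 30.4 CPM in DUX4, and their part in the result was not tested. Col6a4 held 0, 0.0776, 0.113 and 0 CPM in the WT libraries and 0.753, 0.152, 0.762 and 0.129 CPM in the DUX4 libraries, a change of 2.87 (SE 1.01, adjusted p = 0.043), again at the level of a few counts.

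Of the FACIT chains Col12a1, which ties fibrils together in tendon and muscle, held 1.95, 3.72, 3.45 and 2.35 CPM in the WT libraries and 17, 7.16, 5.46 and 15.3 CPM in the DUX4 libraries, a log2 change of 1.97 (SE 0.38, adjusted p = 0.0014). Col16a1 held 1.5, 2.87, 3.05 and 4.2 CPM in the WT libraries and 9.92, 6.4, 3.43 and 9.42 CPM in the DUX4 libraries, a change of 1.37 (SE 0.33, adjusted p = 0.0056). Col19a1, a FACIT chain expressed in some muscle and nerve cells, held 4.36, 1.09, 0.622 and 0.504 CPM in the WT libraries and 8.47, 5.03, 8.5 and 7.05 CPM in the DUX4 libraries, a change of 2.09 (SE 0.66, adjusted p = 0.027). Only its WT replicate 1 came near the DUX4 libraries. Col9a1, a cartilage FACIT chain, was the 1 chain that fell, from 0.716, 2.95, 3.34 and 2.02 CPM in WT to 0, 0, 0.127 and 0.129 CPM in DUX4 (-4.79 (SE 1.61, adjusted p = 0.037)).

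Among the basement membrane chains only Col18a1, the source of endostatin, rose, with 4.49, 6.83, 8.65 and 7.9 CPM in the WT libraries and 33, 13.6, 11 and 25.3 CPM in the DUX4 libraries and a log2 change of 1.59 (SE 0.29, adjusted p = 8.4e-04). Col4a1 held 46.8, 91.2, 104 and 114 CPM in the WT libraries and 157, 115, 66.1 and 171 CPM in the DUX4 libraries, a change of 0.52 (SE 0.42, adjusted p = 0.39) that was not called, and the groups overlapped. Of the transmembrane chains, Col13a1 held 0.781, 0.543, 0.792 and 1.0 CPM in the WT libraries and 3.1, 2.28, 2.35 and 2.54 CPM in the DUX4 libraries, a change of 1.74 (SE 0.27, adjusted p = 2.3e-04), and Col25a1, which motor axons need to enter muscle, held 0.13, 0.388, 0.679 and 0.168 CPM in the WT libraries and 6.44, 0.305, 1.65 and 1.33 CPM in the DUX4 libraries, a change of 2.75 (SE 0.79, adjusted p = 0.017). DUX4 replicate 1 was far above the others for Col25a1, and the call was lost without it (adjusted p = 0.12).

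Calls of Col1a1, Col1a2, Col5a2, Col10a1, Col11a1, Col12a1, Col13a1, Col16a1, Col18a1 and Col27a1 held when any 1 library was left out, and those of the other 9 did not. Leaving out DUX4 replicate 1 had the largest effect, with 11 chains called, and without WT replicates 1 and 4 together 11 were called (10 higher and 1 lower). Col3a1 and Col6a1 were lost without DUX4 replicate 1 or 4 or WT replicate 1 or 2, Col3a1 also without WT replicate 3, and Col6a2 and Col8a1 without DUX4 replicate 1 or 4. Col6a3 was lost without DUX4 replicate 4. Col6a4, Col9a1 and Col19a1 were each lost in 5 or 6 of the 8 refits.

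Markers of other cells moved with these values. The 8 FAP markers summed to 109.7 to 417 CPM in 16-week WT libraries and 498 to 713 CPM in DUX4 libraries, with 1 of 8 called (Lum, a fibril-binding proteoglycan, log2 change 1.54). The 6 tendon markers summed to 42.3 to 81.8 and 202 to 382 CPM, with 2 of 6 risen (Thbs4 3.10, Kera 2.82), the 7 macrophage markers to 19 to 67.9 and 49.5 to 136 CPM, with 2 of 7 risen, and the 6 muscle fibre markers to 96082 to 118164 and 45161 to 71110.2 CPM, with 3 of 6 fallen. Of the satellite cell markers 2 of 5 rose (Myf5 1.58, Chodl 1.67), with sums of 34.9 to 105 and 62 to 89.3 CPM, and of the mural markers Abcc9 -0.81 fell, with sums of 429.8 to 955 and 439 to 563 CPM. The 4 adipocyte markers, none called, summed to 5.38 to 16 and 29.2 to 92.4 CPM, with Plin1 at 0 in both groups. No endothelial or Schwann cell marker was called. No marker of these lists other than Plin1 was at 0 throughout a group. Their part in the collagen values was not tested.

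The DUX4 effect was then compared between the times by an interaction term. No chain of 39 was called by edgeR, where 0.188% of all genes had a larger effect at 16 weeks and 0.11% a smaller one. At an unadjusted p under 0.05 there were 14 chains, 13 of them with the larger log2 effect at 16 weeks and Col7a1 with the larger effect at 2 weeks. The lowest adjusted p by edgeR was 0.093. DESeq2 called 2 and limma with voom weights 1. The shares of all genes at that unadjusted threshold and under these tools are not given here. These counts therefore cannot be read as particular to collagens. For Col1a1 the difference between the effects was 2.03 (SE 0.51, adjusted p = 0.093) on the log2 scale and for Col11a1 1.23 (SE 0.73, adjusted p = 0.39). Of the 5 chains that rose at 2 weeks and the 18 that rose at 16 weeks, 3 were the same (Col6a4, Col11a1 and Col13a1), which is 3 of the 5 and 3 of the 18. The overlap over all genes between the times is not given here.

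**Figure D4:**
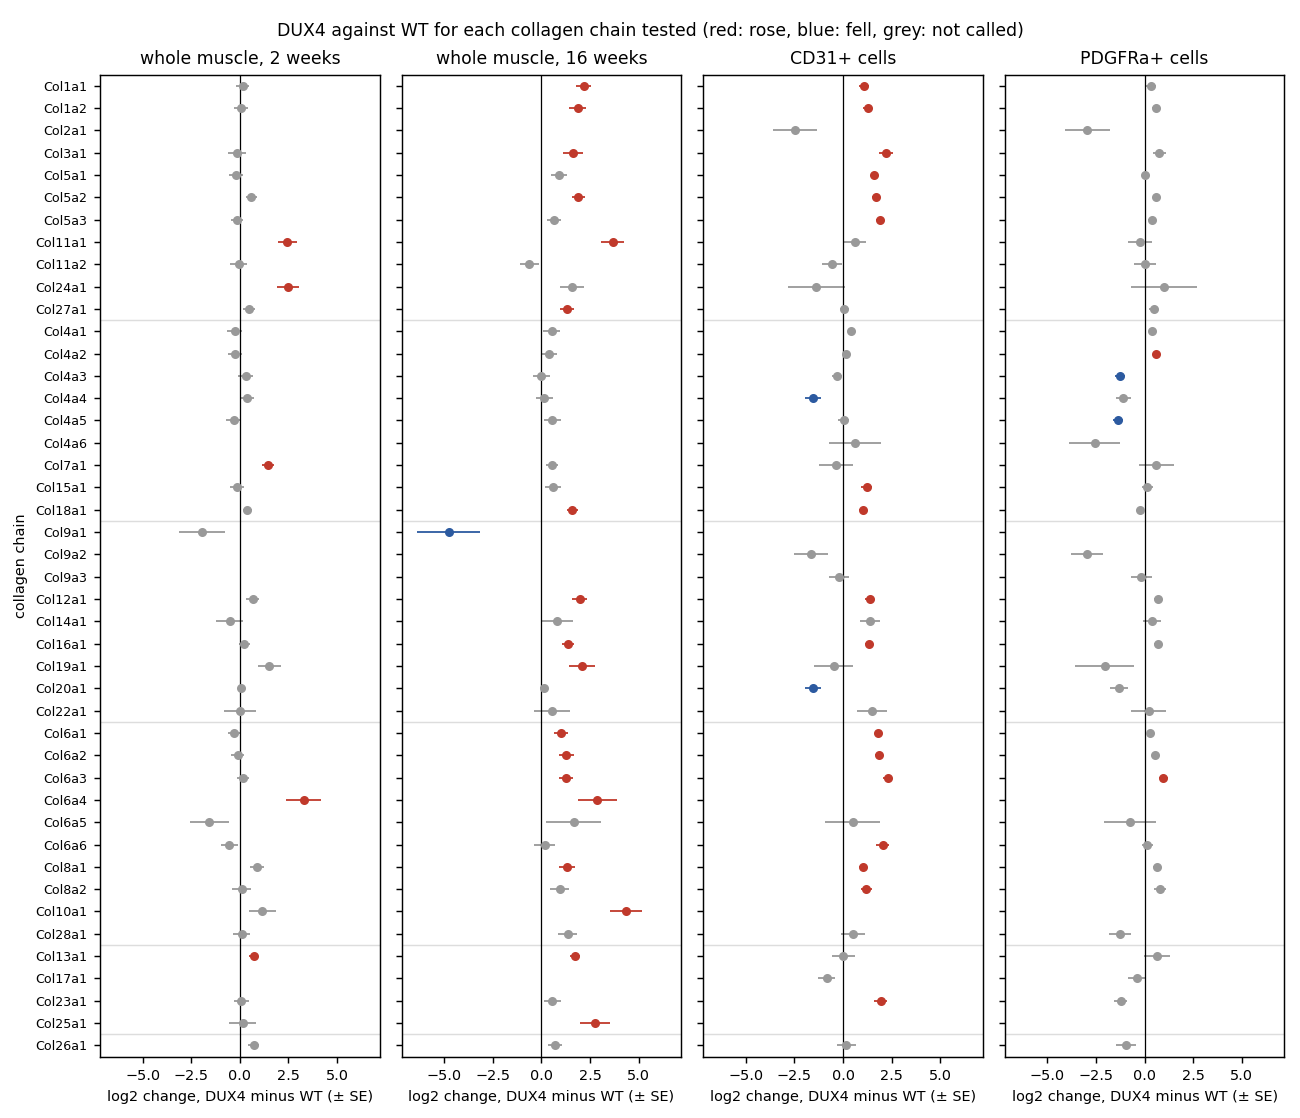
Log2 change between DUX4 and WT with its SE (x axis) for each collagen chain tested (y axis, by class, in the order fibrillar, basement membrane, FACIT, network, transmembrane and other) in 2-week muscle, 16-week muscle, CD31+ cells and PDGFRa+ cells. Red points rose, blue points fell and grey points were not called: 18 rose at 16 weeks and 17 in CD31+ cells, against 5 at 2 weeks and 2 in PDGFRa+ cells.

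In sorted endothelial cells 17 of the 40 chains tested rose in DUX4 and 2 fell. That is 42.5% beside 3.72% of all genes tested for higher, and 5.0% beside 1.35% for lower. The median change was 0.60 on the log2 scale over the 40 chains and near 0 over all genes (-0.0047). Fibrillar chains rose in 6 of 11 and network chains in 6 of 8, basement membrane chains rose in 2 of 9 and fell in 1, and FACIT chains rose in 2 of 8 and fell in 1. WT and DUX4 libraries did not overlap in any of the 19 called chains, as was so for 95.8% of all called genes, nor in 3 that were not called. That makes 22 of 40 chains, beside 18.1% of all genes tested.

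The fibrillar chains that rose were those of types I, III and V. Col3a1 held 1255, 704 and 315 CPM in the WT libraries and 3308, 3089, 3507 and 4206 CPM in the DUX4 libraries, a log2 change of 2.22 (SE 0.35, adjusted p = 0.0013). The WT libraries were far apart, replicate 1 highest and replicate 3 lowest. Col1a1 held 639.9, 541 and 227 CPM in the WT libraries and 1090.1, 1048, 984 and 802 CPM in the DUX4 libraries, a change of 1.06 (SE 0.26, adjusted p = 0.026), and Col1a2 held 1013, 621 and 428 CPM in the WT libraries and 1469.9, 1657, 1636 and 1819 CPM in the DUX4 libraries, a change of 1.26 (SE 0.21, adjusted p = 0.0016). All 3 type V chains rose as well. Col5a1 held 90.9, 71.2 and 74.4 CPM in the WT libraries and 211, 242, 245 and 244 CPM in the DUX4 libraries, a change of 1.58 (SE 0.16, adjusted p = 1.5e-05). Col5a2 held 109, 66.5 and 65.7 CPM in the WT libraries and 193, 266, 284 and 304 CPM in the DUX4 libraries, a change of 1.70 (SE 0.20, adjusted p = 5.9e-05). Col5a3, the third type V chain, held 95.6, 111 and 66.9 CPM in the WT libraries and 243, 414, 347 and 345 CPM in the DUX4 libraries, a change of 1.89 (SE 0.21, adjusted p = 4.4e-05). The minor fibrillar chains Col11a1, Col11a2, Col24a1 and Col27a1 were not called, nor was Col2a1.

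Of the network chains, Col6a1 held 275, 308 and 188 CPM in the WT libraries and 848, 886, 867 and 988 CPM in the DUX4 libraries, a log2 change of 1.8 (SE 0.17, adjusted p = 8.4e-06). Col6a2 held 265, 213 and 136 CPM in the WT libraries and 671, 761, 731 and 782 CPM in the DUX4 libraries (1.85 (SE 0.20, adjusted p = 2.9e-05)), and Col6a3 held 121, 66.7 and 55.1 CPM in the WT libraries and 352, 464, 402 and 371 CPM in the DUX4 libraries (2.29 (SE 0.23, adjusted p = 1.8e-05)). The lowest DUX4 library stood well above the highest WT library for all 3 chains. Col6a6 held 8.4, 3.8 and 4.25 CPM in the WT libraries and 26, 31.2, 13.6 and 19.4 CPM in the DUX4 libraries, a change of 2.03 (SE 0.32, adjusted p = 9.7e-04). The type VIII chains, which endothelial cells are known to make, also rose: Col8a1 held 97.8, 105 and 70.2 CPM in the WT libraries and 152, 176, 194 and 216 CPM in the DUX4 libraries (1.02 (SE 0.21, adjusted p = 0.0075)), and Col8a2 held 8.81, 13.7 and 7.09 CPM in the WT libraries and 17.8, 17.7, 21.2 and 34.3 CPM in the DUX4 libraries (1.21 (SE 0.31, adjusted p = 0.03)). Col8a1 was the network chain with the smallest rise.

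Col4a1 and Col4a2, the type IV chains of the vessel wall and the leading basement membrane chains here, were not called. Col4a1 held 1308, 1410.3 and 1231 CPM in the WT libraries and 1479, 1888, 1594 and 1992 CPM in the DUX4 libraries (0.40 (SE 0.14, adjusted p = 0.13)) and Col4a2 held 766, 848 and 751 CPM in the WT libraries and 799, 894, 802 and 1055 CPM in the DUX4 libraries (0.17 (SE 0.13, adjusted p = 0.54)). The 2 genes lie head to head on chromosome 8, and their annotated starts overlap (a gap of -22 bases). Col15a1 and Col18a1, which sit at the outer face of basement membranes, rose. Col15a1 held 42.2, 15.5 and 19.6 CPM in the WT libraries and 43.3, 63.6, 75.5 and 58.8 CPM in the DUX4 libraries (1.22 (SE 0.28, adjusted p = 0.017)), and Col18a1 held 109, 133 and 76.1 CPM in the WT libraries and 228, 211, 219.9 and 211 CPM in the DUX4 libraries (1.04 (SE 0.20, adjusted p = 0.005)). Col4a4, a minor type IV chain, fell from 2.95, 3.47 and 7.91 CPM to 0.604, 1.84, 2.26 and 1.78 CPM (-1.55 (SE 0.39, adjusted p = 0.029)).

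Among the other classes Col12a1 held 18.3, 18.2 and 16.4 CPM in the WT libraries and 55.2, 46.6, 32 and 47.9 CPM in the DUX4 libraries (1.36 (SE 0.21, adjusted p = 9.0e-04)), and Col16a1 held 30.7, 34.3 and 16.5 CPM in the WT libraries and 76.9, 61.9, 61.1 and 74.7 CPM in the DUX4 libraries (1.34 (SE 0.21, adjusted p = 8.2e-04)). Both are FACIT chains of fibril surfaces. Col23a1, a transmembrane collagen, held 18.8, 21.9 and 7.14 CPM in the WT libraries and 68.5, 43.4, 85.8 and 47.4 CPM in the DUX4 libraries (1.94 (SE 0.35, adjusted p = 0.0028)). Col20a1, a FACIT chain, fell from 43.9, 51.9 and 72.8 CPM to 34.5, 17.5, 11.7 and 13.6 CPM (-1.54 (SE 0.42, adjusted p = 0.043)). Calls of 14 of the 19 chains held when any 1 library was left out. Col1a1 was lost without DUX4 replicate 1, 2 or 3 (adjusted p at most 0.057), Col15a1 without WT replicate 3, Col8a2 without WT replicate 1 or 3 or DUX4 replicate 3 or 4, Col4a4 without WT replicate 3 or DUX4 replicate 1, 2 or 4, and Col20a1 in 6 of the 7 refits.

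**Figure D5:**
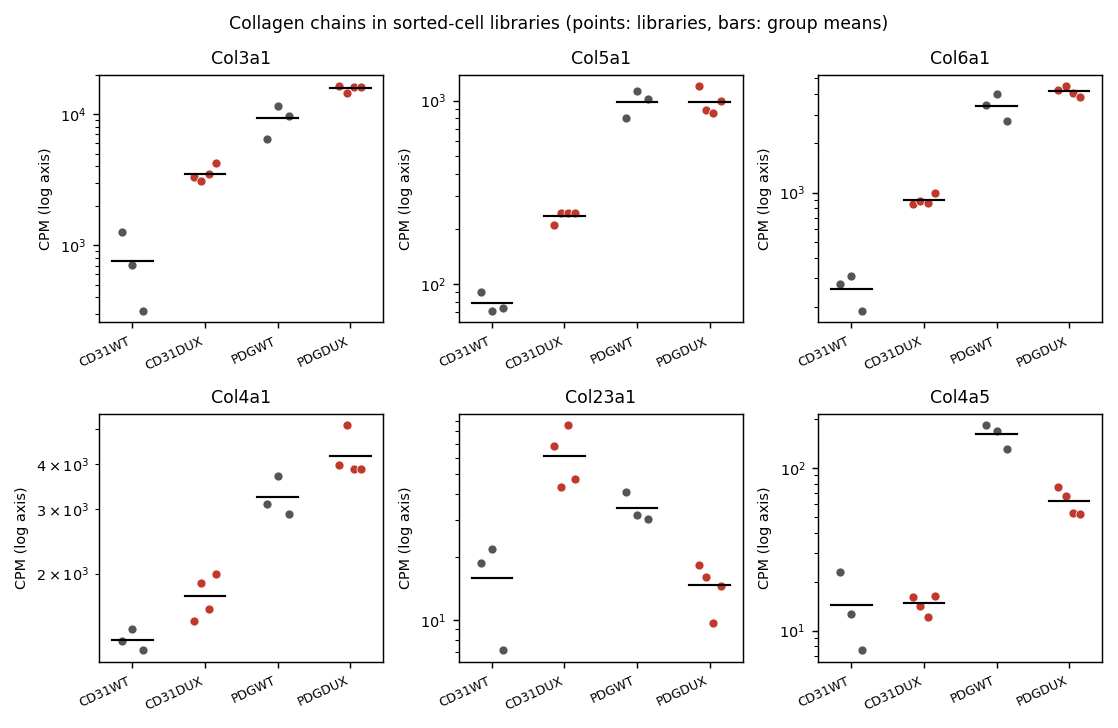
CPM on a log axis for 6 collagen chains in each sorted-cell library (points; grey WT, red DUX4), with group means as bars. Col3a1, Col5a1 and Col6a1 are higher in DUX4 than in WT among CD31+ libraries but far below the PDGFRa+ libraries, Col23a1 is higher in DUX4 among CD31+ libraries, and Col4a5 is lower in DUX4 among PDGFRa+ libraries.

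FAP markers moved with the endothelial result. Of the 8 FAP markers 4 rose in DUX4 endothelial libraries (Pdgfra 1.71, Dcn 1.36, Lum 2.25 and Dpt 1.61 on the log2 scale), Ly6a, Pi16, Dpp4 and Cd34 were not called, and none was at 0. As a share of the mean level in FAPs of the same genotype, the CD31+ libraries held Dcn, a proteoglycan of fibrils, at 7.64% in WT and 19.5% in DUX4, Lum at 5.99% in WT and 16.4% in DUX4 and Pdgfra, the receptor used to sort FAPs, at 4.99% in WT and 13.3% in DUX4. The same share was 8.17% in WT and 22.3% in DUX4 for Col3a1, 8.0% in WT and 23.9% in DUX4 for Col5a1, 7.6% in WT and 21.5% in DUX4 for Col6a1 and 16.7% in WT and 28% in DUX4 for Col1a1. It was 40.6% in WT and 41.3% in DUX4 for Col4a1, 29% in WT and 69.1% in DUX4 for Col18a1 and 46.5% in WT and 419% in DUX4 for Col23a1. The other FAP markers spread more widely, with Dpt at 6.98% in WT and 18.4% in DUX4, Dpp4 at 9.3% in WT and 29.4% in DUX4, Pi16 at 12% in WT and 23.5% in DUX4, Cd34 at 26.1% in WT and 46.7% in DUX4 and Ly6a at 97.1% in WT and 63.9% in DUX4. In WT none of these 7 chains lay above all 8 markers, and in DUX4 Col18a1 and Col23a1 did. The WT result rested on Ly6a and Cd34. In WT Col4a1, Col18a1 and Col23a1 lay above every marker but Ly6a, and Col1a1 above every marker but Ly6a and Cd34. In DUX4 Col4a1 lay above every marker but Ly6a and Cd34. Of the called chains not among the 7, Col12a1 lay at 47.7% in WT and 75% in DUX4, above all 8 markers in DUX4. Col20a1, which fell, lay above them in both genotypes, at 727% in WT and 622% in DUX4. The rest of the called chains lay below Ly6a in both. Among them Col8a1 (41.2% in WT and 53.3% in DUX4) and Col8a2 (43.8% and 58.1%) lay above every marker but Ly6a.

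Of 8 mural cell markers Pdgfrb rose and Acta2, Myh11 and Tagln fell in the same libraries, and their sum was 1261 to 1614 CPM in WT and 655 to 949.6 CPM in DUX4. The 6 tendon markers summed to 1128 to 1296 and 1812 to 2905 CPM, with 1 of 6 risen (Thbs4), and the 8 endothelial markers, none called, to 3756 to 4412 and 2865 to 3368 CPM. The 6 muscle fibre markers summed to 93.4 to 218 and 313 to 780.1 CPM and the 6 Schwann cell markers to 198 to 279.5 and 112 to 145 CPM, both without overlap, with no fibre marker called and 1 Schwann cell marker fallen (Prx -1.42). The 7 macrophage markers, none called, summed to 32.7 to 252 and 224 to 368 CPM, and all 7 log2 changes were positive. Of the 4 cartilage and bone markers tested Sox9 1.13 rose, with sums over all 7 of 340.3 to 487 and 399 to 429 CPM and Ibsp at 0 in both groups. No satellite cell or adipocyte marker was called. The part of these markers in the collagen result, like that of the FAP markers, was not tested. Of the 18 chains that rose in 16-week muscle and the 17 that rose in endothelial libraries, which share no library, 11 were the same, 61.1% of the former and 64.7% of the latter. Among the 18, Col6a4, Col10a1 and Col25a1 were not tested in sorted cells and could not be shared. Over all genes tested 14.1% rose in 16-week muscle and 3.72% in endothelial libraries, and the overlap over all genes is not given here.

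In FAPs, the libraries with the largest share of collagen RNA, few chains were called: 2 of 40 rose and 2 fell. That is 5.0% each way, beside 1.23% of all genes tested for higher and 1.77% for lower. The median change was 0.18 on the log2 scale against -0.07 over all genes. Col6a3 held 1135, 1599 and 1139.7 CPM in the WT libraries and 2743, 2720.0, 2218 and 2388 CPM in the DUX4 libraries, a log2 change of 0.96 (SE 0.22, adjusted p = 0.026), and Col4a2 held 1181, 1325 and 1084 CPM in the WT libraries and 1761, 1985, 1647 and 1846 CPM in the DUX4 libraries, a change of 0.60 (SE 0.13, adjusted p = 0.017). The groups did not overlap for either. Col4a1, the partner of Col4a2, held 3097, 3695 and 2922 CPM in the WT libraries and 3963, 5114, 3884 and 3881 CPM in the DUX4 libraries and was not called (0.38 (SE 0.14, adjusted p = 0.2)).

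Both chains that fell belong to the minor type IV collagen known from kidney and lung. Col4a5 held 183, 168 and 131 CPM in the WT libraries and 76.5, 67, 53 and 51.9 CPM in the DUX4 libraries, a change of -1.37 (SE 0.27, adjusted p = 0.0092), and this was the only FAP call that held when any 1 library was left out. Col4a3 held 35.5, 52.4 and 35.7 CPM in the WT libraries and 11, 23.2, 15.9 and 18.7 CPM in the DUX4 libraries, a change of -1.26 (SE 0.27, adjusted p = 0.016), lost without WT replicate 2. Col4a4, whose start lies 71 bases from that of Col4a3 on chromosome 1, held 23.2, 25.4 and 27 CPM in the WT libraries and 11.2, 13.4, 10.9 and 12 CPM in the DUX4 libraries and missed the threshold (-1.09 (SE 0.37, adjusted p = 0.15)). The same was true of Col4a6, the neighbour of Col4a5 on chromosome X (-2.58 (SE 1.32, adjusted p = 0.4)). All WT libraries were above all DUX4 libraries for Col4a3, Col4a4, Col4a5 and Col4a6. The groups did not overlap for 17 of the 40 chains, 13 of them not called, beside 14.7% of all genes tested.

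The count of calls in FAPs depended on the tool. DESeq2 called 11 chains (8 higher, 3 lower), limma with voom weights 12 (7 and 5), and edgeR fitted on the FAP libraries alone 12 (6 and 6). The shares of all genes given above belong to the main fit. Those of these settings are not given here, so the larger counts cannot be read as particular to collagens. These 3 settings shared 7 chains: Col1a2, Col4a2, Col5a2, Col6a3 and Col16a1 higher, and Col4a3 and Col4a5 lower. Col1a2 held 3926, 5128 and 4534 CPM in the WT libraries and 6536, 6768, 6918 and 7327 CPM in the DUX4 libraries, a log2 change of 0.60 (SE 0.21, adjusted p = 0.15) in the fit with all sorted cells. Col3a1 held 6520.2, 11611 and 9684 CPM in the WT libraries and 16467, 14415, 16260.2 and 16007 CPM in the DUX4 libraries (0.77 (SE 0.33, adjusted p = 0.28)). Without WT replicate 1 or 3, 2 chains were called. In these libraries the tendon markers summed to 721 to 1067 CPM in WT and 2292 to 2736 CPM in DUX4, with 2 of 6 risen (Tnmd 1.44, Thbs4 1.58). Endothelial markers fell in 2 of 8 (Pecam1 -1.07, Cdh5 -1.57). Of the mural markers Pdgfrb 0.81 rose and Acta2 -1.22 and Myh11 -1.85 fell, of the Schwann cell markers Mbp -1.41 fell, and of the cartilage and bone markers Sox9 -0.97 and Alpl -1.20 fell. Of the FAP markers Lum 0.79 rose, with sums of 31046 to 37487 CPM in WT and 36301 to 39534 CPM in DUX4. Their part in the collagen values was not tested.

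The difference between the DUX4 effects in the 2 cell types was tested as an interaction. For 9 of 40 chains the effect in FAPs was below that in endothelial cells and for none above, beside 1.7% and 0.553% of all genes. They were Col5a1 (-1.58 (SE 0.21, adjusted p = 8.4e-04)), Col5a2 (-1.09), Col5a3 (-1.51), Col6a1 (-1.5 (SE 0.23, adjusted p = 0.0021)), Col6a2 (-1.29), Col6a3 (-1.33), Col6a6 (-1.89), Col18a1 (-1.25) and Col23a1 (-3.17 (SE 0.48, adjusted p = 0.0021)), all as log2 differences. Col23a1 had the largest difference: in FAPs it held 40.9, 31.7 and 30.4 CPM in the WT libraries and 18.2, 16.1, 9.67 and 14.5 CPM in the DUX4 libraries, lower in DUX4 but not called (-1.23 (SE 0.33, adjusted p = 0.056)), while it rose in endothelial libraries. Calls of Col5a1, Col5a3, Col6a1 and Col23a1 held when any 1 library was left out. Between 4 chains (without FAP WT replicate 2) and 14 (without endothelial WT replicate 1) were called, and 5 without endothelial DUX4 replicate 2 or endothelial WT replicate 3. The same term was called for 4 of the 8 FAP markers, all with the lower effect in FAPs. The median difference of the 8 was -1.38 on the log2 scale, and 1 of the 8 was positive. Of the 4 cartilage and bone markers tested 1 had the lower effect in FAPs, and no marker of the other lists was called. Their part in the collagen result was not tested.

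Without DUX4, FAPs held more RNA than endothelial cells for 26 of 40 chains and less for 5, beside 16.7% and 14.5% of all genes tested, with a median difference of 1.95 on the log2 scale against -0.02 over all genes. Network chains were higher in 7 of 8, with Col6a6 farthest apart (5.02 (SE 0.36, adjusted p = 3.6e-08)), and basement membrane chains in 7 of 9, from Col4a2 (0.60) to Col4a5 (3.49). The 5 that were lower in FAPs were Col19a1 (-4.51), Col22a1 (-3.19), Col13a1 (-3.04), Col20a1 (-2.86) and Col11a2 (-2.68), 3 of them FACIT chains. Col20a1 held 43.9, 51.9 and 72.8 CPM in WT endothelial libraries and 3.83, 8.93 and 10.4 CPM in WT FAPs. Markers of further cell types were also lower in WT FAPs than in WT endothelial libraries. They were 5 of 6 Schwann cell, 4 of 5 satellite cell, 5 of 6 muscle fibre, 6 of 8 mural and 4 of 6 tendon markers. In these lists 2 mural markers and 1 tendon marker were higher. Their part in the collagen values was not tested. This comparison and that of DUX4 with WT in endothelial cells share the 3 WT endothelial libraries.

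Ratios were taken within each library between chains that share a fibril (Col3a1 and Col1a1) or a molecule (Col5a1 and Col5a2, Col4a1 and Col4a2, Col6a3 and Col6a1). Ratios of Col1a1 to Col1a2 and of Col6a1 to Col6a2 were also taken and are not given here. The level of Col3a1 over that of Col1a1, per kb, was 1.65 ± 0.383 in WT and 3.94 ± 1.14 in DUX4 endothelial libraries, and 3.49 ± 0.385 and 4.8 ± 0.396 in FAPs. The ranges did not overlap in either cell type. In 16-week muscle the ratio lay lower in DUX4, at 1.16 ± 0.146 against 1.63 ± 0.325, with ranges of 1.02 to 1.33 and 1.3 to 2.05 that overlap. Col5a1 over Col5a2 was 1.21 ± 0.214 in WT and 0.607 ± 0.0721 in DUX4 16-week muscle, without overlap, and 0.99 ± 0.144 and 0.584 ± 0.158 at 2 weeks, where the lowest WT library (0.818) lay below the highest DUX4 library (0.827). In FAPs Col5a1 over Col5a2 was 1.04 ± 0.0671 in WT and 0.694 ± 0.161 in DUX4, without overlap, and in endothelial libraries the ranges overlapped. Col4a1 over Col4a2 was 1.63 ± 0.0335 and 1.91 ± 0.114 in endothelial libraries and 2.64 ± 0.081 and 2.26 ± 0.194 in FAPs. Col6a3 over Col6a1 was 0.155 ± 0.0177 and 0.245 ± 0.017 in FAPs and 0.328 ± 0.0731 and 0.445 ± 0.0573 in 2-week muscle, both without overlap. Its ranges overlapped in 16-week muscle and in endothelial libraries. No test was made of these ratios, and their absolute size depends on the transcript length used.

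The genes that build, receive and break down collagen were followed in 6 lists of 56 genes. In 16-week muscle 15 of the 49 tested rose and 3 fell, beside 14.1% and 12.5% of all genes tested, with a median log2 change of 0.59. Of the breakdown genes 4 of 7 rose, among them the cathepsin Ctsk (3.21) and the metalloproteases Mmp14 1.32 and Mmp2 1.37. Of the crosslinking enzymes 2 of 5 rose (Loxl2 1.31, Loxl3 1.03), of the receptors 3 of 9 (Lair1 2.47, Mrc2 1.53, Itgb1 0.65), and of the processing proteins 1 of 6 (Pcolce 0.86). The modifying enzymes and their cofactors rose in 3 of 14 and fell in 1, and the chaperones and export factors rose in 2 of 8 and fell in 2 (Mia2 -0.55, Sec23a -0.58). At 2 weeks 2 of 49 rose (Itgb1, Prep) and 1 fell (Colgalt1), beside 11.2% and 6.47% of all genes tested.

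In endothelial libraries 19 of the 54 tested rose and none fell, beside 3.72% and 1.35% of all genes tested, with a median log2 change of 0.54. Crosslinking enzymes rose in 4 of 5 (Loxl1 1.98, Loxl3 1.28 and Loxl2 1.0 among them), breakdown genes in 4 of 8 (Ctsk 2.38, Mmp14 1.91, Mmp2 1.83 among them), processing proteins in 3 of 8 (Pcolce 1.49, Adamts2 1.38, Bmp1 0.77), receptors in 3 of 10, modifying enzymes in 4 of 15 and chaperones in 1 of 8 (Fkbp10 1.17). In FAPs P3h2 1.19, a prolyl hydroxylase, and Ctsk 1.10 rose, and Adgrg6, a receptor that binds type IV collagen, had a log2 change of -3.60, the only fall. Over all genes tested in FAPs 1.23% rose and 1.77% fell. By the interaction term between the cell types the effect was lower in FAPs for 9 of the 54 and higher for 1. Over all genes these shares were 1.7% and 0.553%.

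Of the 44 chains 32 were called in at least 1 of the 4 DUX4 comparisons and 12 in none: Col2a1, Col4a1, Col4a6, Col6a5, Col9a2, Col9a3, Col11a2, Col14a1, Col17a1, Col22a1, Col26a1 and Col28a1. Col4a1, with up to 5114 CPM in a library, was the most abundant of these. Col2a1, the cartilage fibrillar chain, held 1.04, 2.74 and 2.6 CPM in WT and 0.604, 0, 0.336 and 0.565 CPM in DUX4 endothelial libraries, and 3.21, 1.56 and 4.78 and 1.11, 0.534, 0 and 0 CPM in FAPs, low values at which neither difference was called. Col26a1 did not exceed 5.61 CPM in any library. Whether the counts separate strands is not given in the sources used here, so that reads of a chain and of an overlapping antisense gene cannot be told apart.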

How the data were processed

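RNA-seq was analysed in 32 mouse libraries of 8 groups, taken from the labels, which were given as estimated (expected) counts per Ensembl gene. The authors deposited these expected counts, made with Salmon 0.6.0 and CASAVA 1.8 on mm10 per the submitters' processing notes. How transcripts were summed to genes, and with which annotation, is not given in the sources used here. Symbols and lengths came from GENCODE vM21 for 42459 of 43035 genes. Counts were rounded and tested in edgeR 4.0.16 (R 4.3.3) by a robust quasi-likelihood test with trimmed mean of M-values (TMM) factors, filterByExpr at 10 counts and Benjamini-Hochberg adjustment over all genes, with a call at 0.05. The 18 whole-muscle and 14 sorted-cell libraries were fitted apart, with 1 mean per group. SEs are the change over the root of F. DESeq2 1.42.0, limma voom 3.58.1, other scaling and filters, and fits without single libraries were the alternatives. The fit was tested on simulated data. Values per library are given for chains called in a DUX4 comparison and for the leading chains, and at most 3 pathway genes per list are named. The members and lists were chosen with earlier results of these data known. The DUX4 transgene was not analysed here.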

Additional observations from a re-analysis of the deposited data

Results flagged for a closer look

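In groups of 4 or 5 libraries, 5 of the 71 tested sets of values held a library far from the others, where chance gives about 1 in 20. Of these, 4 were replicate 1 of the 16-week WT libraries: Col1a1 at 16.7 CPM (the others 49.2 to 53.4), Col1a2 at 18.3 CPM (64.1 to 68.5) and Col6a1 at 14.6 CPM (41.6 to 45.9) were low, and Col19a1 at 4.36 CPM (0.504 to 1.09) was high. Without that library Col1a1 and Col1a2 were still called at 16 weeks and Col6a1 was not. Col5a1 in DUX4 endothelial replicate 1 was low at 211 CPM, against 242 to 245 CPM.

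The DUX4 effect differed between FAPs and endothelial cells, by the interaction term, for 9 chains, all with the lower effect in FAPs: Col5a1 by -1.58, Col5a2 by -1.09, Col5a3 by -1.51, Col6a1 by -1.50, Col6a2 by -1.29, Col6a3 by -1.33, Col6a6 by -1.89, Col18a1 by -1.25 and Col23a1 by -3.17 on the log2 scale. Of the 8 FAP markers 4 were called by the same term, also with the lower effect in FAPs.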

How the results depend on the processing

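No paired analysis was possible because the labels give the libraries no shared replicate numbers (the numbers used here only name libraries, in the order of the deposit). In the alternatives tried, no called change of a chain turned its direction. Of the 34 chains not called at 2 weeks 25 turned in at least 1 alternative, Col1a1 among them (-0.25 in replicates 1 to 3 alone and 0.67 in replicates 4 and 5 alone), and at 16 weeks 4 of 20 did, in endothelial cells 9 of 21 and in FAPs 8 of 36. Chains called at 2 weeks numbered 9 in replicates 1 to 3 alone and 1 in replicates 4 and 5 alone. At 16 weeks 12 were called in a fit of the groups compared only, and 11 without WT replicates 1 and 4. In FAPs 11 were called by DESeq2, 12 by limma voom and 12 in the groups compared only. The interaction of time gave 2 by DESeq2 and 1 by limma voom. WT muscle between the times gave 20 with a term for the set and 5 without WT replicates 1 and 4 at 16 weeks, and DUX4 muscle gave 6 by DESeq2, 10 by limma voom, 0 with no filter, 3 in the groups compared only and 4 with a term for the set. The cause was not tested. No share of all genes is set beside the counts of these alternatives, so they describe the collagen chains only. Leaving out 1 library at a time gave 3 to 6 calls at 2 weeks, 11 to 18 at 16 weeks, 15 to 18 in endothelial cells, 2 to 4 in FAPs, 0 to 0 for the interaction of time, 4 to 14 for that of cell type, 29 to 31 between the WT cell types, 10 to 14 in WT muscle between the times and 0 to 0 in DUX4 muscle. Chains of a few counts, such as Col6a4, Col9a1 and Col10a1, are limited by depth.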
